A study of Drosophila melanogaster with 18 samples.

Results

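CG15784 (FBgn0029766) was followed across 18 RNA-seq libraries of S2R+ cells, an adherent Drosophila line derived from embryonic cells with features of blood cells. It is 1 gene of 17559 in the files and of 8146 with enough reads to be tested. It was chosen because it was abundant in control cells and higher in every knockdown, to different degrees. Its own levels and differences are therefore given as a description, with estimates and errors and with no test. The tests concern other genes, which that choice did not use.

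All cells, controls included, were at passages 8 to 10 and were given 10 µg of double-stranded RNA 3 times within 6 days. Such RNA depletes the transcript it matches by RNA interference. The 5 knockdown groups were Nito (against Nito), Fl2d (against Fl(2)d), Vir (against Vir), CG7358 (against CG7358, annotated as Flacc) and Ime4_dMettl14 (against Ime4 and dMettl14 together, annotated as Mettl3 and Mettl14). The control was treated against LacZ, a bacterial gene that these cells lack. Each of the 6 groups had 3 libraries of polyadenylated RNA, with 15743484 to 18100792 counts per library. Whether replicate libraries were separate cultures is not stated, so errors and p-values describe the spread among the libraries at hand and that spread may be technical. No group restored a target, so loss of the target and other effects of its double-stranded RNA cannot be told apart.

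The targeted proteins make up the writer complex for N6-methyladenosine (m6A), a modified base of messenger RNA. Mettl3 and Mettl14 form the methyltransferase pair. Fl(2)d, Virilizer, Flacc and the RNA-binding protein Spenito, the product of nito, are its further subunits, several of which are also known from alternative splicing of Sex-lethal in the fly. CG15784 has no name in the annotation beyond its CG number, and no function is assigned to it here.

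CG15784 lies on the X chromosome, on the plus strand, at X:5429571-5432526 (BDGP6). It has no intron. A pair of transcripts is annotated, which end together and share a coding sequence of 554 codons (positions 5430680 to 5432341). CG15784-RA starts at 5430565, with a 5′ UTR of 115 bases. CG15784-RB starts 994 bases earlier, at 5429571, with a 5′ UTR of 1109 bases. The 3′ UTR has 182 bases in both. Counts were made per gene, so the transcripts were not separated, and no other annotated gene overlaps this span.

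CG15784 was at its highest in Nito and at its lowest in control, with no control library near any knockdown library. In CPM (read counts scaled to a common library size with TMM factors), the Nito libraries had 4490.5, 4221 and 4382. The Fl2d libraries had 1624, 1721 and 1589 CPM. The Vir libraries had 1417, 1866 and 1454 CPM. Replicate 2 of Vir stood above the other Vir libraries and above every Fl2d library. The CG7358 libraries had 1294, 1333 and 1305 CPM. The Ime4_dMettl14 libraries had 502, 553 and 543 CPM, and the control libraries had 271, 255 and 246 CPM. The lowest Ime4_dMettl14 library was thus above the highest control library, and the lowest Nito library above every library of the other groups.

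**Figure D1:**
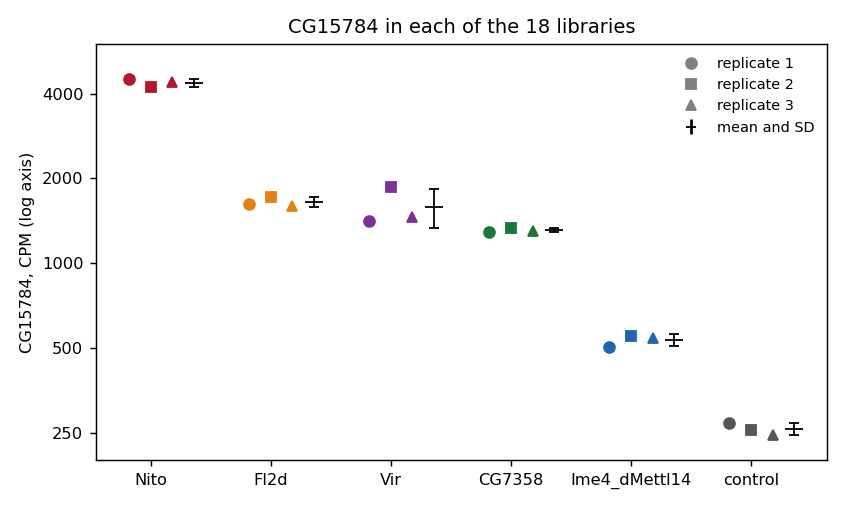
CG15784 in CPM on a log axis, by group, with 1 symbol per library and the mean and SD (n = 3) to the right of each group. The Nito libraries lie at 4221 to 4490.5 CPM, the control libraries at 246 to 271 CPM, and Vir replicate 2 (1866 CPM) lies above the other Vir libraries.

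The group means gave the order Nito, Fl2d, Vir, CG7358, Ime4_dMettl14, control. The means were 4365 ± 136 CPM in Nito, 1644 ± 68.4 in Fl2d, 1579 ± 249 in Vir, 1310.5 ± 20.2 in CG7358, 533 ± 26.8 in Ime4_dMettl14 and 257 ± 12.6 in control (SD, n = 3 each). The neighbours Fl2d and Vir in this order did not differ beyond their spread. The other neighbours did not overlap. Of the variance of log2 CPM over the 18 libraries, 99.58% lay between groups, and 12 of the 8146 tested genes had a higher share. That share rests on the differences CG15784 was chosen for, so nothing is read from its rank. Within groups the pooled SD of log2 CPM was 0.10, against a median of 0.04 over 123 genes of like level. Of these genes, 119 had a lower SD than CG15784. Its SD of 0.22 in Vir was the highest of any group.

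The fitted difference from control was largest in Nito, at a log2 fold change of 4.09 ± 0.10 (SE), or 17-fold. In Fl2d it was 2.68 ± 0.09, or 6.40-fold, and in Vir 2.62 ± 0.09, or 6.14-fold. CG7358 gave 2.35 ± 0.09, or 5.10-fold, and Ime4_dMettl14 gave 1.05 ± 0.09, or 2.07-fold. In all 5 knockdowns the libraries did not overlap those of control. The share of all tested genes whose libraries did not overlap control was 65.5% in Nito, 42.0% in Fl2d, 44.4% in Vir, 47.4% in CG7358 and 24.3% in Ime4_dMettl14. Because CG15784 was chosen on these contrasts, nothing is read from that comparison. All 5 differences share the same 3 control libraries.

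Set directly against each other, the knockdowns ran from Nito, the highest in CG15784, through Fl2d, Vir and CG7358 to Ime4_dMettl14, the lowest. Nito exceeded Fl2d by 1.41 ± 0.09 on the log2 scale (SE), Vir by 1.47 ± 0.09, CG7358 by 1.74 ± 0.09 and Ime4_dMettl14 by 3.03 ± 0.09, the last an 8.19-fold difference. Fl2d exceeded Ime4_dMettl14 by 1.63 ± 0.09, Vir exceeded it by 1.57 ± 0.09 and CG7358 exceeded it by 1.30 ± 0.09. The 3 intermediate knockdowns lay close together, with Fl2d over CG7358 by 0.33 ± 0.08, Vir over CG7358 by 0.27 ± 0.08 and Fl2d over Vir by 0.06 ± 0.08. Of the 10 pairs, 9 had libraries that did not overlap, the exception being Fl2d and Vir. Over all tested genes, the share without overlap was 61.1% between Nito and Fl2d, 63.0% between Nito and Vir, 61.3% between Nito and CG7358 and 68.2% between Nito and Ime4_dMettl14. It was 22.1% between Fl2d and Vir, 26.2% between Fl2d and CG7358 and 39.3% between Fl2d and Ime4_dMettl14. It was 30.2% between Vir and CG7358, 41.3% between Vir and Ime4_dMettl14 and 44.0% between CG7358 and Ime4_dMettl14. CG15784 was chosen for differing degrees of rise, so nothing is read from its lack of overlap in these pairs either. Without Vir replicate 2 the difference of Vir over CG7358 was 0.13, that of Fl2d over Vir was 0.19, and that of Vir over control was 2.48. The sign of Fl2d over Vir turned without Vir replicate 1 (−0.026) and without Vir replicate 3 (−0.0060).

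**Figure D2:**
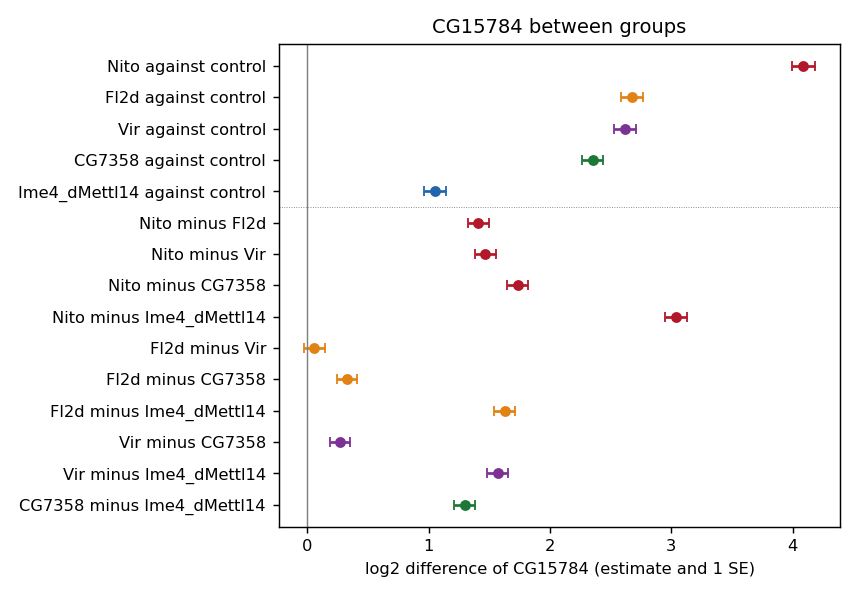
Log2 difference of CG15784 with 1 SE for each knockdown against control (above the dotted line) and for the 10 pairs of knockdowns (below it), each written as the first group minus the second. The difference is 4.09 for Nito against control and 0.06 for Fl2d minus Vir, the one pair whose libraries overlap.

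The difference of CG15784 is set beside those of other genes as a description. It was chosen on these contrasts, so nothing is read from its ranks. Among the 6309 genes whose log2 CPM averaged 3 or more, its log2 fold change against control ranked 1 in each knockdown. Over all 8146 tested genes it ranked 2 in Nito and in CG7358, below edin, an immune-induced gene, 1 in Fl2d and in Vir, and 12 in Ime4_dMettl14. The median size of the log2 fold change over all tested genes was 0.21 in Nito, 0.11 in Fl2d, 0.12 in Vir, 0.13 in CG7358 and 0.07 in Ime4_dMettl14.

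The gain in CPM rests on the same choice, so its ranks are a description too. Over all 17559 genes in the files, CG15784 had the highest gain in Nito, 4108 CPM. This was 5.65% of the summed gain of all genes with a higher mean. It also had the highest gain in Fl2d, 1387 CPM or 2.16% of the sum. It ranked 3 in Vir (1322 CPM, 2.03%) and 3 in CG7358 (1054 CPM, 1.52%), and 8 in Ime4_dMettl14 (276 CPM, 1.22%). CG15784 took 0.441% of all counts in Nito and 0.0262% in control.

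Per length, CG15784 stood beside ribosomal protein transcripts in Nito. In CPM per kilobase of exon it had 1477 ± 45.9 in Nito (SD, n = 3), rank 50 of the 17253 genes with an annotated length. The genes beside it in that order were RpL8 (1482 ± 147) and RpL6 (1419.7 ± 73.9), both encoding proteins of the large ribosomal subunit. In Fl2d it ranked 117, in Vir 124, in CG7358 151 and in Ime4_dMettl14 368. In control it had 86.9 ± 4.27 CPM per kilobase, rank 923, beside e(r) (87.0 ± 1.77), the enhancer of rudimentary, and Ent2 (86.9 ± 0.187), a nucleoside transporter gene. These ranks use the whole exon, which is that of CG15784-RB. With the length of CG15784-RA, chosen after the data were seen, the rank was 22 in Nito and 550 in control.

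The remaining target transcripts were read beside the CG15784 levels, and the orders differed. In Nito the nito transcript was at 24.9% of its control mean, and in CG7358 the Flacc transcript was at 29.6%. In Fl2d the fl(2)d transcript was at 16.8%, and in Vir the vir transcript was at 12.3%. In Ime4_dMettl14, Mettl3 was at 10.5% and Mettl14 at 14.5%. CG15784 was lowest among the knockdowns where Mettl3 and Mettl14 were at 10.5% and 14.5%, and highest where nito was at 24.9%. These are transcripts of different genes, and loss of their proteins cannot be ranked from them. The part of target depletion in the CG15784 levels was not tested.

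The surroundings of CG15784 on the X chromosome were not part of its choice. Within 50 kb of either end 8 other genes are annotated, of which 3 had enough reads to be tested. The other 5 were close to silent in every library: SK, a potassium channel gene, had at most 3 counts in any library, NAAT1, an amino acid transporter gene, at most 4, and CG16756, lncRNA:CR44471 and SPR, the sex peptide receptor gene, at most 2. lncRNA:CR44471 begins 913 bases beyond the 3′ end of CG15784 on the same strand, and had 10 counts over all 18 libraries. It had 0 or 1 count in each Nito library, where CG15784 had 73922 to 79925 counts, and 0 to 2 in each control library.

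The tested gene closest to CG15784 fell in every knockdown. lncRNA:CR45517 (FBgn0267073, X:5428483-5429256, plus strand), a long noncoding RNA gene, ends 315 bases before CG15784-RB and 1309 bases before CG15784-RA begins. It had 39, 38 and 43 counts in the Nito libraries, 53, 60 and 60 in Fl2d, 60, 56 and 63 in Vir, 50, 55 and 64 in CG7358 and 70, 52 and 57 in Ime4_dMettl14. The control libraries had 101, 88 and 88. No knockdown library reached the lowest control library. Every knockdown was set against the same control libraries, so these falls are not independent of each other. The level was 2.30 ± 0.117 CPM in Nito, 3.60 ± 0.326 in Fl2d, 3.74 ± 0.129 in Vir, 3.49 ± 0.528 in CG7358, 3.44 ± 0.534 in Ime4_dMettl14 and 5.41 ± 0.378 in control (SD, n = 3 each).

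In edgeR's quasi-likelihood test with Benjamini-Hochberg adjustment over all tested genes, lncRNA:CR45517 fell by 1.23 in Nito (log2, SE 0.15, adjusted p = 1.58e-08). It fell by 0.59 in Fl2d (SE 0.14, adjusted p = 0.00118), by 0.53 in Vir (SE 0.14, adjusted p = 0.00264), by 0.63 in CG7358 (SE 0.14, adjusted p = 0.00045) and by 0.65 in Ime4_dMettl14 (SE 0.14, adjusted p = 0.00279). The share of all tested genes called lower was 30.9% in Nito, 16% in Fl2d, 17.3% in Vir, 18.8% in CG7358 and 2.63% in Ime4_dMettl14. Those called lower in all 5 knockdowns were 73 genes, or 0.896%, and those called higher in all 5 were 68, or 0.835%. Over 13 alternative settings for each knockdown, the highest adjusted p for this RNA was 0.0272, in Ime4_dMettl14.

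Among the knockdowns lncRNA:CR45517 was lowest in Nito. By edgeR it was lower in Nito than in Fl2d by a log2 difference of −0.64 ± 0.16 (SE, adjusted p = 0.00111), than in Vir by −0.70 ± 0.16 (adjusted p = 0.000397), than in CG7358 by −0.60 ± 0.16 (adjusted p = 0.00224) and than in Ime4_dMettl14 by −0.58 ± 0.16 (adjusted p = 0.00237). Of all tested genes, 29.3%, 28.7%, 28.8% and 31.1% were called lower in these 4 comparisons, in the order given. The other 4 knockdowns were not separated from each other, with log2 differences between −0.06 and 0.12 and adjusted p between 0.604 and 0.946 by edgeR. All tested genes called in either direction were 5.98% for Fl2d minus Vir, 11.8% for Fl2d minus CG7358, 25.9% for Fl2d minus Ime4_dMettl14, 13.7% for Vir minus CG7358, 27.0% for Vir minus Ime4_dMettl14 and 31.8% for CG7358 minus Ime4_dMettl14. The median ratio of CG15784 counts to lncRNA:CR45517 counts was 1895 in Nito, 442 in Fl2d, 380.02 in Vir, 408 in CG7358, 172 in Ime4_dMettl14 and 46.8 in control. This ratio contains CG15784, which was chosen for its rise, so it is a description only.

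**Figure D3:**
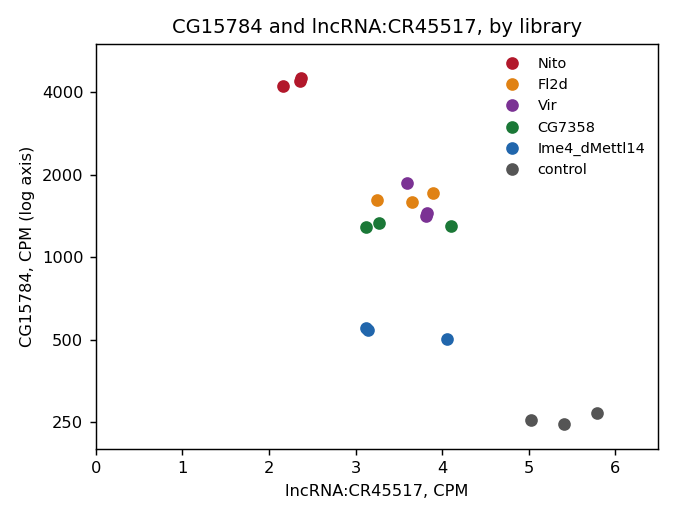
CG15784 in CPM (log axis) against lncRNA:CR45517 in CPM, with 1 point per library coloured by group. The Nito libraries lie at 2.16 to 2.37 CPM and the control libraries at 5.03 to 5.78 CPM of lncRNA:CR45517, at opposite ends of both axes, while the other knockdowns share the range 3.12 to 4.10 CPM at different levels of CG15784.

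Neither of the next tested genes upstream was called lower in any knockdown. Usp16-45, a deubiquitinase gene that ends 2352 bases before CG15784, had 90.2 ± 1.86 CPM in Nito and 81.1 ± 0.666 CPM in control (SD, n = 3 each). It rose in Nito (by edgeR 0.15 ± 0.04 on the log2 scale, adjusted p = 0.00227) and passed the threshold in no other knockdown, with log2 fold changes between −0.01 and 0.07. For spoon, an A-kinase anchor protein gene on the minus strand 8704 bases away, the levels were 378 ± 16.2 CPM in Nito, 446 ± 23.2 in Fl2d, 377 ± 39.9 in Vir, 409 ± 26.3 in CG7358, 332 ± 22.2 in Ime4_dMettl14 and 324 ± 6.28 in control. By edgeR it rose in Fl2d (0.46 ± 0.07, adjusted p = 0.000376), CG7358 (0.34 ± 0.07, adjusted p = 0.00309), Nito (0.22 ± 0.07, adjusted p = 0.0203) and Vir (0.22 ± 0.07, adjusted p = 0.0402). Its value in Ime4_dMettl14 was 0.03 ± 0.07 (adjusted p = 0.868). In Nito the adjusted p for spoon was 0.0655 without control replicate 2, 0.0515 without Nito replicate 1 and 0.0715 without Nito replicate 3. It was 0.0591 with no filter on low counts. In Vir it was 0.0659 to 0.104 without any one control library, and 0.137 and 0.108 without Vir replicate 1 or 3. Of the 3 tested neighbours, 3 were called in Nito, 2 each in Fl2d, Vir and CG7358 and 1 in Ime4_dMettl14, where 60.7%, 32.0%, 34.0%, 37.6% and 5.63% of all tested genes were called in the same order.

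**Figure D4:**
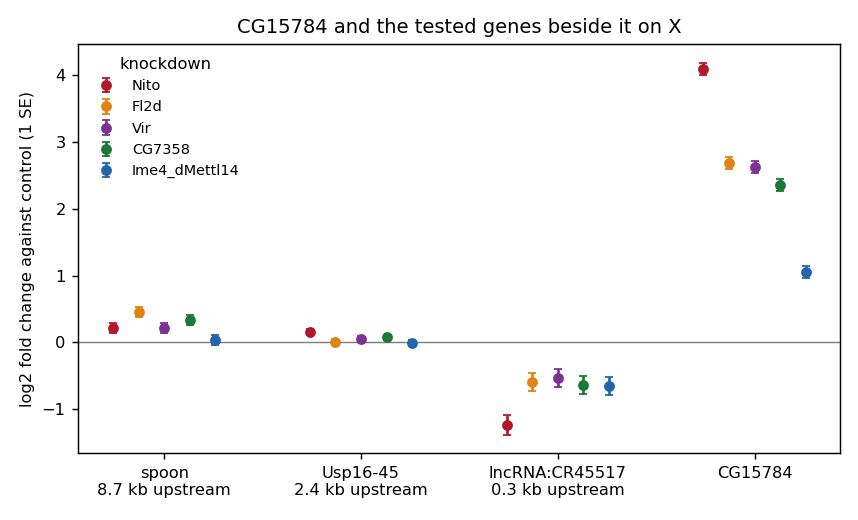
Log2 fold change against control with 1 SE for the 3 tested genes within 50 kb of CG15784, ordered by their distance upstream, and for CG15784 at the right, coloured by knockdown. lncRNA:CR45517 lies below 0 in all 5 knockdowns (−1.23 in Nito) and CG15784 above 0 in all 5.

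Genes elsewhere in the genome followed CG15784 with much smaller changes. Likeness was measured as Pearson's r of log2 CPM over the 18 libraries, among 6308 other genes whose log2 CPM averaged 3 or more. These points share libraries and groups, so r mainly compares 6 group means, and it is given as a description. The median r was −0.06, 82 genes had an r of at least 0.9 and 112 had an r of −0.9 or below. The 8 most alike were babos (r = 0.98), loco, which encodes a regulator of G-protein signalling (0.98), the ubiquitin ligase gene Smurf (0.98), the kinase gene hppy (0.97), Rox8, an RNA-binding protein of the TIA-1 kind (0.96), Lasp, encoding an actin-binding protein (0.96), Oda, ornithine decarboxylase antizyme (0.96), and tou, a chromatin factor gene (0.96). Neither these nor the 4 most opposite genes lie on the X chromosome. The share of the ranked genes on X is not given here, so nothing is read from this.

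The gene most like CG15784, babos, was far less abundant. It had 19.6, 17.6 and 20.2 CPM in Nito, 13.3, 12.8 and 12.4 in Fl2d, 9.59, 13.8 and 11.8 in Vir, 9.79, 12.2 and 9.99 in CG7358, 7.66, 7.45 and 7.40 in Ime4_dMettl14 and 5.84, 5.77 and 5.59 in control. Its highest Vir library was replicate 2, as for CG15784. Its log2 fold change was 1.74 ± 0.10 (SE) in Nito, 1.16 ± 0.11 in Fl2d, 1.03 ± 0.12 in Vir, 0.89 ± 0.12 in CG7358 and 0.39 ± 0.12 in Ime4_dMettl14. The other 7 had log2 fold changes of 0.37 (Smurf) to 0.93 (Lasp) in Nito and 0.05 (Rox8) to 0.12 (hppy and Smurf) in Ime4_dMettl14. For deviations from the group means over the 18 libraries, r with CG15784 was 0.68 for babos. It was between −0.72 (Rox8) and 0.12 (Smurf) for the others, so for those the likeness was one of group means. The value for babos is a description only. babos was picked by r over these same libraries, and Vir, where replicate 2 was high for both genes, weighs most on it.

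The most opposite gene was Cln7. Cln7, the fly counterpart of a lysosomal membrane protein gene (r = −0.98), had 4.43, 4.15 and 4.77 CPM in Nito, 7.48, 7.20 and 7.36 in Fl2d, 7.88, 7.19 and 7.77 in Vir, 8.29, 9.27 and 9.67 in CG7358, 13.9, 13.5 and 13.1 in Ime4_dMettl14 and 16.8, 15.3 and 15.1 in control. Its groups ran in the reverse order of CG15784, at log2 fold changes of −1.82 ± 0.09 (SE) in Nito, −1.10 ± 0.08 in Fl2d, −1.05 ± 0.08 in Vir, −0.80 ± 0.08 in CG7358 and −0.22 ± 0.07 in Ime4_dMettl14. The others were NimC4, a receptor for apoptotic cells (r = −0.97), Ugt35A1, a glycosyltransferase gene (−0.97), and CG5853 (−0.97). Their log2 fold changes in Nito were −1.52 ± 0.05, −1.02 ± 0.06 and −0.99 ± 0.05 (SE). Of the 8146 tested genes, 63 others had the same order of the 6 group means as CG15784, babos and Oda among them. The reverse order was found in 56, including Cln7 and Ugt35A1. Both counts depend on Fl2d standing above Vir, which for CG15784 did not differ beyond their spread.

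**Figure D5:**
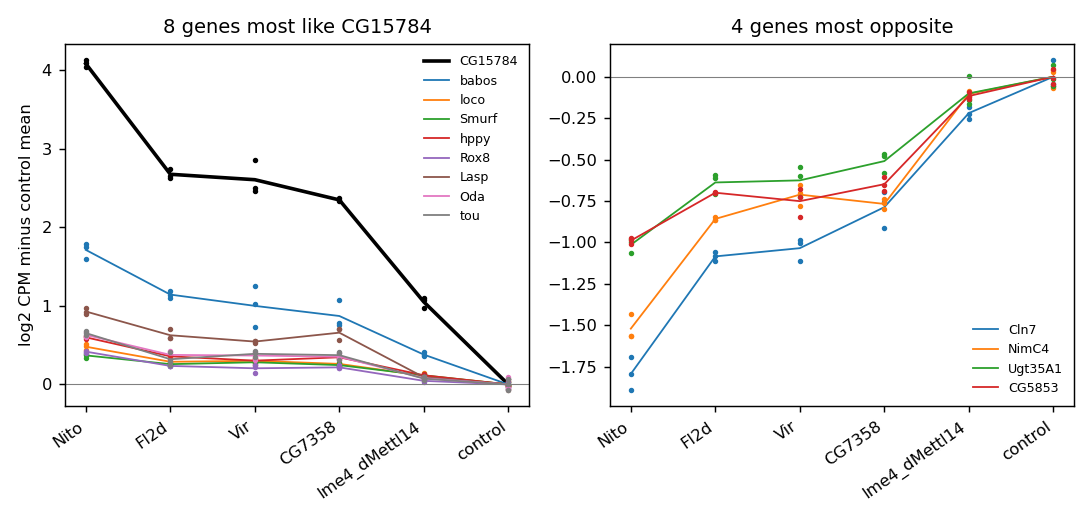
Log2 CPM minus the control mean for CG15784 and the 8 genes most like it (left) and for the 4 most opposite genes (right), on different vertical scales. Lines join the group means and points are single libraries. CG15784 reaches 4.09 in Nito where babos, the next highest, reaches 1.74, and Cln7 falls to −1.82.

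Lists of stress genes that do not hold CG15784 were read beside it. They were chosen with earlier results of these data known. Of the 24 names listed for JNK signalling and oxidative stress, Trxr-1 and Prx2540-1 were not matched in the files and are not covered. Of 20 tested genes of JNK signalling and oxidative stress, 13 rose and 5 fell in Nito by edgeR, against 29.8% and 30.9% of all tested genes. In Fl2d 7 rose and 2 fell, in Vir 10 and 2, in CG7358 10 and 3, and in Ime4_dMettl14 3 and 0. All tested genes called higher were 16% in Fl2d, 16.7% in Vir, 18.8% in CG7358 and 3.01% in Ime4_dMettl14. Those called lower were 16% in Fl2d, 17.3% in Vir, 18.8% in CG7358 and 2.63% in Ime4_dMettl14, where the list had 10%, 10%, 15% and 0%. The median log2 fold change over the list was 0.16 in Nito, 0.11 in Fl2d, 0.12 in Vir, 0.14 in CG7358 and 0.01 in Ime4_dMettl14, and that of all tested genes was 0.00 in each knockdown. The glutathione S-transferase gene GstD5 rose by 1.21 ± 0.11 in Nito (adjusted p = 4.18e-11 by edgeR), by 0.76 ± 0.11 in Vir, by 0.67 ± 0.11 in CG7358 and by 0.56 ± 0.12 in Fl2d (log2, SE). It belongs to a family of similar genes, between which reads can be split, so its count is uncertain. GstD1 rose in Nito (0.42 ± 0.04, adjusted p = 1.1e-09 by edgeR) and fell in Fl2d (−0.17 ± 0.05), Vir (−0.24 ± 0.05) and CG7358 (−0.20 ± 0.05). egr, the TNF ligand gene, fell in Nito (−0.28 ± 0.03, adjusted p = 4.81e-10 by edgeR) and rose in Fl2d (0.31 ± 0.03), Vir (0.11 ± 0.03), CG7358 (0.16 ± 0.03) and Ime4_dMettl14 (0.13 ± 0.03).

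Nutrient stress genes had shares of calls near those of all tested genes in Nito and below them in CG7358, and no difference between the shares was tested. Of the 21 genes listed, InR, Tor and Tsc2 were not matched by name in the files. The counts, shares and medians here do not cover them, and their levels are not given. Of 17 tested, 6 rose and 5 fell in Nito, 4 and 4 in Fl2d, 1 and 3 in Vir, 2 and 2 in CG7358 and 1 and 0 in Ime4_dMettl14. The higher calls were 35.3% of the list in Nito, 23.5% in Fl2d, 5.88% in Vir, 11.8% in CG7358 and 5.88% in Ime4_dMettl14, against 29.8%, 16%, 16.7%, 18.8% and 3.01% of all tested genes. The lower calls were 29.4% in Nito, 23.5% in Fl2d, 17.6% in Vir, 11.8% in CG7358 and 0% in Ime4_dMettl14, against 30.9%, 16%, 17.3%, 18.8% and 2.63% of all tested genes. Over these 17 genes the median log2 fold change was 0.08 in Nito, 0.05 in Fl2d, −0.05 in Vir, 0.08 in CG7358 and 0.00 in Ime4_dMettl14. Thor, the translation inhibitor 4E-BP, fell in Nito (−0.59 ± 0.08 SE, adjusted p = 9.03e-08 by edgeR). It also fell in Fl2d (−0.35 ± 0.08), Vir (−0.52 ± 0.08) and CG7358 (−0.21 ± 0.07). The triglyceride lipase gene bmm rose in Nito (0.36 ± 0.05, adjusted p = 3.91e-08 by edgeR). Its log2 fold changes in the other 4 knockdowns, between −0.09 and 0.10, did not pass the test. The adaptor gene Lnk rose in Nito (0.17 ± 0.04, adjusted p = 0.000165 by edgeR) and in Fl2d (0.13 ± 0.04, adjusted p = 0.00936).

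In control the cells carried the transcripts of a blood cell line. For the knockdowns only summed marker levels are given, which do not show each marker. Of 10 plasmatocyte markers 9 were above 1 CPM in control, all but NimC1, and their summed level was 2010.1 to 2029 CPM in Nito, 2203 to 2377 over the other 4 knockdowns and 2240.0 to 2277 in control. Markers of fat body summed to at most 0.603 CPM and the 4 matched markers of muscle to at most 1.59 CPM in any library. The listed markers wupA of muscle and vas and nos of germ line were not matched by name, so their levels are not given. The 5 neuron markers summed to 43.3 to 50.9 CPM in Nito, 22.1 to 44.1 over the other 4 knockdowns and 31.3 to 36.1 in control, with nSyb, brp and Syt1 at or under 1 CPM in control. The 2 matched germ line markers, bam and aub, summed to 194 to 197 CPM in Nito, 204 to 240.2 over the other 4 knockdowns and 224 to 242 in control. tj, of somatic ovary cells, had at most 1.65 CPM in any library. The part of these shifts in the CG15784 levels was not tested. In such bulk samples, a change in how many cells express a gene and a change in its RNA per cell cannot be told apart.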

How the data were processed

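Per the labels' protocols, libraries were made from polyadenylated RNA of S2R+ cells by a directional kit. The authors deposited 1 file of raw read counts for each library, by FlyBase ID, made with STAR 2.5.1b and featureCounts 1.5.1 on BDGP6, per the submitters' processing notes. Its annotation release, and how strand and multiply mapped reads were handled, is not given in the sources used here. Positions, exon lengths and neighbours come from Ensembl's annotation of BDGP6, in which 17253 of 17559 IDs were found.

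Libraries were grouped by the treatment label. Counts (15743484 to 18100792 per library) were filtered with filterByExpr, scaled by TMM and fitted with edgeR 4.0.16 in R 4.3.3, as a robust quasi-likelihood model of all 18 libraries with 1 coefficient per group. Benjamini-Hochberg adjustment ran over 8146 genes, and a gene was called under 0.05. The SE is the size of the log2 difference divided by the square root of F. Log2 CPM used a prior count of 2. The members and lists were chosen with earlier results of these data known. Named genes are the targets, the tested genes within 50 kb, the 8 most alike and 4 most opposite genes, those beside CG15784 in rank per kilobase, and, for each list, the 3 with the smallest p in Nito. Replicates differed by more than sampling noise. Protein similarity was not analysed here. The alternatives were DESeq2 size factors, total counts, DESeq2 1.42.0 as the test, other filters, the replicate number as a block, only the groups compared, and each library of a comparison left out in turn.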

Additional observations from a re-analysis of the deposited data

How the results depend on the processing

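The log2 differences of CG15784, 5 against control and 10 between knockdowns, kept their sign and moved by less than 1 SD of the replicates under every alternative, except where a Vir library was left out. Leaving out 1 library at a time gave 2.48 to 2.70 for Vir against control, 1.38 to 1.60 for Nito minus Vir, −0.026 to 0.19 for Fl2d minus Vir (−0.026 without Vir replicate 1 and −0.0060 without Vir replicate 3), 0.13 to 0.35 for Vir minus CG7358 and 1.43 to 1.64 for Vir minus Ime4_dMettl14. The calls of lncRNA:CR45517 held under all 13 alternatives in each knockdown. In Vir against control, 1 of the 3 neighbouring genes was called, in place of 2, with total counts as the library size, with no filter on low counts and with only the groups compared (1 to 2 with a library left out), since spoon was lost. For genes called in Ime4_dMettl14 against control, 459 in all, the range with a library left out was 233 to 364 (267 and 250 without control replicate 1 or 2, 233 and 238 without Ime4_dMettl14 replicate 1 or 2). The nutrient stress genes called in Ime4_dMettl14 were 3 with no filter, 2 with a CPM above 5 in 3 libraries, 2 by DESeq2 and 1 to 3 with a library left out, and in Fl2d 5 to 8 with a library left out. In Nito against control 2 of the 3 neighbouring genes were called with no filter, as spoon was lost there too. The cause of these changes was not tested. With the replicate number as a block, CG15784 gave 4.09 in Nito and 1.05 in Ime4_dMettl14 against control, and 4923 and 458 genes were called. The labels do not say that a number marks a shared culture, and the deviations of same-numbered libraries correlated between −0.09 and 0.17. Of the 8 most alike and 4 most opposite genes, 3 and 1 were also named by Spearman's rho, and 5 and 0 by r over the 6 group means. The counts of 38 to 101 per library limit the precision for lncRNA:CR45517.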
